A study of Mus musculus with 20 samples.

Results

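Coding-exon bins away from promoters are 100 bp windows of the autosomes whose centre lies in a RefSeq coding exon and more than 5 kb from every RefSeq transcription start site (TSS). They were chosen by position in mm10, without use of a difference between groups, among the bins in which each group of samples varied and no value other than 0 or 100 occurred more than once within a group. There were 2902 such bins in 1983 genes, which is 3.45% of the 84131 bins of the series without repeated values and 6.99% of the 41540 deposited bins at such positions. The deposited table held 1201951 bins in all. Reduced representation bisulfite sequencing (RRBS) measured DNA methylation in 20 samples of hematopoietic stem cells (HSCs) of C57BL/6 mice (C57BL/6 J in the methods), with 4 untreated samples (0x), 6 samples after 2 cycles of 5-fluorouracil (2x), 4 after 4 cycles (4x) and 6 after 10 cycles (10x). 5-Fluorouracil (5FU) is an antimetabolite toxic to dividing cells, and the study asked whether the number of forced rounds of HSC division leaves a mark on methylation. The methods describe female mice that were 3 months old at the start, doses of 150 mg per kg at intervals of 3 weeks, and HSCs sorted from bone marrow as Lin- cKit+ Sca1+ CD34- Flk2- CD150+ cells 1 month after the last cycle. The labels name blood as the tissue. Whether the samples of a group are different mice is not given in them, so p-values measure only the spread between samples, which may be technical.

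Coding exons within transcribed genes carry methylated CpG in most mammalian cells, whereas the CpG-rich starts of genes are usually unmethylated. In transcribed gene bodies, methylation is laid down largely by DNMT3 enzymes that bind histone H3 trimethylated at lysine 36, and it is copied at each division by DNMT1. CpG islands that lie inside genes can escape this methylation, among them islands in the exons of developmental regulators that Polycomb complexes occupy.

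The sequences of 8 bins are given first, since the results on single bins turn on them. These bins were picked at an unadjusted limma p under 0.05, 10 points and no overlap of treated with untreated samples. At that p and 10 points, 2.72% of coding-exon bins were higher and 1.17% lower in 10x, against 2.90% and 1.28% of all bins. The sequences were read from GRCm38.p6 (mm10) on the coding strand of the gene, 5′ to 3′, with each CpG in capitals as the place where methylation can be measured. The bin of Ppard, which encodes a nuclear receptor for fatty acids, was the only coding-exon bin to pass the adjusted threshold in any comparison. The bins of Sypl2, a synaptophysin-like membrane protein of muscle, Dnm1, the dynamin that pinches off synaptic vesicles, Frmpd1, a scaffold with FERM and PDZ domains, and Gli1, a transcription factor of the Hedgehog pathway, were higher in 10x at an unadjusted p under 0.05. The bins of Virma, a subunit of the RNA m6A methyltransferase, and Runx3, a Runt transcription factor of T cells, were lower in 10x, also at the unadjusted p only. The bin of Btnl9, a butyrophilin-like membrane protein, was lower in 2x and in 4x, again at the unadjusted p only.
Ppard (chr17:28298300-28298399, + strand, coding exon 4 of 6): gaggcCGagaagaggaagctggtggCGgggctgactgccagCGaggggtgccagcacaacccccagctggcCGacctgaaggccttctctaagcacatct
Sypl2 (chr3:108216600-108216699, - strand, coding exon 5 of 6): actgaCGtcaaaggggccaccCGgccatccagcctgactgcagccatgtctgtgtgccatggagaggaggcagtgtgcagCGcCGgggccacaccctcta
Dnm1 (chr2:32340500-32340599, - strand, coding exon 3 of 22): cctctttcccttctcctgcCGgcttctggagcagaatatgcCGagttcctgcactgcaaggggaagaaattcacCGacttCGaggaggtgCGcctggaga
Frmpd1 (chr4:45285600-45285699, + strand, coding exon 15 of 15): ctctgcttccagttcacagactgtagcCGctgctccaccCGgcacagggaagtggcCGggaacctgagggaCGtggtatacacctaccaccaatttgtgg
Gli1 (chr10:127332400-127332499, - strand, coding exon 10 of 11): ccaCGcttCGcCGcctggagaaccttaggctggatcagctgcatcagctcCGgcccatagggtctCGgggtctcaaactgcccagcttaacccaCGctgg
Virma (chr4:11494800-11494899, + strand, coding exon 2 of 25): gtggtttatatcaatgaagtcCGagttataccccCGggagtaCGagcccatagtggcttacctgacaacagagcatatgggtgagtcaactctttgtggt
Runx3 (chr4:135175400-135175499, + strand, coding exon 6 of 6): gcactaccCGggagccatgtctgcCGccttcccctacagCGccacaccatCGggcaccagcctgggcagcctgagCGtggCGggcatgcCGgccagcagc
Btnl9 (chr11:49169100-49169199, - strand, coding exon 9 of 9): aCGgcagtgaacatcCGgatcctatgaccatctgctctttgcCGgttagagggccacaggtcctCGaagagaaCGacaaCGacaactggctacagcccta
Of these 100 bases, 66 were coding in the bin of Dnm1, 80 in that of Virma and 99 in that of Gli1, and all were coding in the others. The bins held between 3 CpG (Virma) and 7 CpG (Runx3), and all 8 lay between 6073 bp (Sypl2) and 21974 bp (Runx3) from the nearest TSS.

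All values are the percent methylation that the authors deposited for each bin and sample. The table gave no read numbers, and without the depth no counting interval could be given. The methods state that a bin missing in a sample received the mean of its group, and such values are not marked. The promoters of the HSC genes Kit, Slamf1, Procr, Hlf and Meis1 had a mean methylation between 0.145% and 2.50% and that of Mecom 19.6%, while promoters of genes of other blood cells lay between 17.8% (Itgam, 1 bin) and 100% (Cd3e, 1 bin). No promoter bin was found for Ly6a, Ms4a1 and Ly6g. These promoter values were taken over all deposited bins within 1 kb of a TSS, which can hold filled values.

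Most coding-exon bins were highly methylated. Averaged over the 20 samples, 2181 bins (75.2%) were above 80%, 433 (14.9%) lay between 20% and 80% and 288 (9.92%) were below 20%. Introns more than 5 kb from a TSS (14862 bins, called deep introns here) had 71.2% of their bins above 80%, 20.9% between 20% and 80%, and 7.89% below 20%. Intergenic bins 5 to 50 kb from a TSS (12620 bins, called near intergenic bins) had 65.7% above 80% and 11.1% below 20%. Coding exons within 5 kb of a TSS, which the rule leaves out, showed the opposite picture, with 18.5% of 6686 bins above 80% and 71.3% below 20%. The coding-exon bins lay at a median of 13520.5 bp from the nearest TSS (quartiles 8101 and 25595.5 bp), and 1775 (61.2%) lay wholly within coding sequence.

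Methylation of coding exons was higher farther from the TSS, and the limit of 5 kb fell on the slope and not on a step. The mean level was 10.5% within 0.5 kb (3461 bins) and 40.2% at 1 to 2 kb (960 bins). It was 68.5% just inside the limit, at 4 to 5 kb, where 21.9% of 302 bins were below 20%, and 73.6% just outside it, at 5 to 6 kb, where 16% of 263 bins were below 20%. Farther out the mean reached 80.8% at 8 to 10 kb and 84.8% at 20 to 50 kb, with 82.0% of the bins at 20 to 50 kb above 80%.

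**Figure D1:**
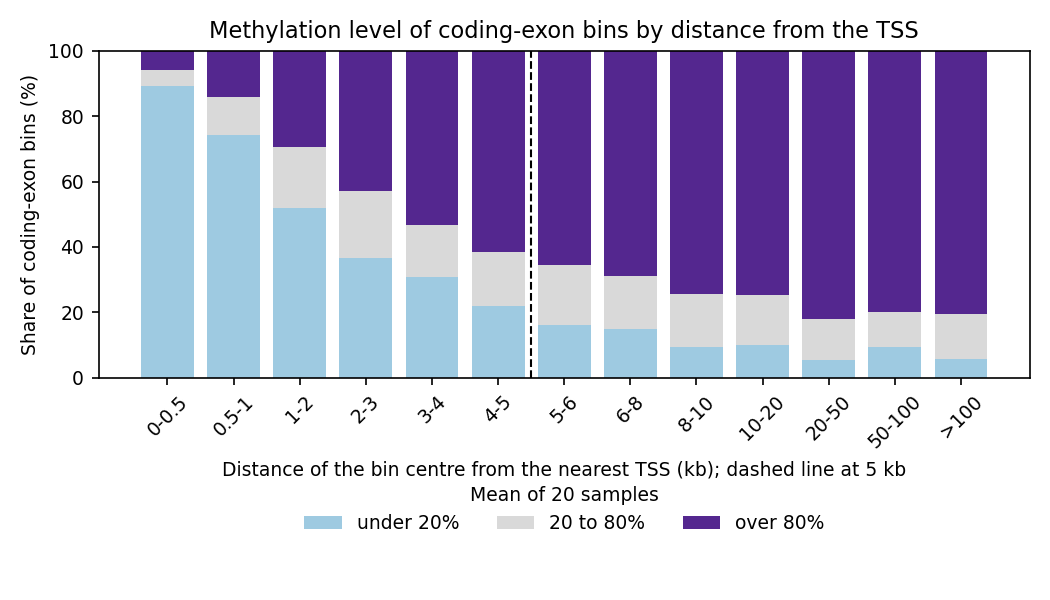
Share of coding-exon bins (percent, vertical axis) below 20%, between 20% and 80%, and above 80% methylation, by distance of the bin centre from the nearest TSS (kb, horizontal axis), with the level of a bin averaged over 20 samples and a dashed line at 5 kb. The share below 20% was 89.3% within 0.5 kb, 21.9% at 4 to 5 kb, 16% at 5 to 6 kb and 5.32% at 20 to 50 kb.

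Bins below 20% held more CpG than bins above 80%, as a description over bins. Coding-exon bins held a median of 5 CpG and 59% G and C, against 2 CpG and 51% in deep introns and 3 CpG and 51% in near intergenic bins. Bins below 20% held a median of 9 CpG and 68% G and C, the same medians as promoter bins, while bins above 80% held 5 CpG and 58%. The 518 bins with 8 or more CpG averaged 58.7%, with 34.6% of them below 20% and 51.2% above 80%, against a mean of 85.2% for the 1525 bins with 4 to 7 CpG and 84.1% for the 859 bins with 1 to 3 CpG. At least 1 CCGG, the site that MspI cuts in RRBS, lay in 95.4% of coding-exon bins and 92.8% of deep intron bins.

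Low bins also differed in where the CpG fell in the codon, as a description over CpG that share genes and bins. Of 14736 CpG in 2888 bins, 36.6% covered codon positions 1 and 2 (as in the arginine codons CGN), 26.6% covered positions 2 and 3 and 36.7% joined position 3 to the next codon. In bins below 20% the shares were 28.9%, 31.5% and 39.6%, and in bins above 80% they were 38.8%, 25.1% and 36.1%. The level also differed with the position of the exon. Internal coding exons (2038 bins) averaged 83.4% with 6.43% of bins below 20%, first coding exons (115 bins) 78.0%, genes with a single coding exon (80 bins) 74.6%, and last coding exons (669 bins) 71.1% with 19.6% below 20%.

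Most genes were represented by 1 bin (1416 of 1983), 567 genes had at least 2 and 182 had at least 3. Among these 182 genes, the mean was above 80% in 106, below 20% in 22 and between in 54, and the lowest and highest bin of a gene were a median of 14.7 points apart. In 16 of them a bin below 20% and a bin above 80% lay in the same gene. Bins that touched or lay within 100 bp of each other (330 pairs in 264 genes) differed in level by a median of 3.48 points, and pairs more than 10 kb apart (531 pairs in 170 genes) by 7.24 points. More than 20 points separated 32 of the near pairs and 170 of the distant ones.

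Titin (Ttn), the giant spring protein of muscle, had the most bins, 16 between 62.3% and 98.8%. Ryr1, the calcium release channel of skeletal muscle, had 8 bins, of which both bins in coding exon 91 were at 3.69% and 4.31% with 16 and 12 CpG, while the bin in exon 82 was at 92.3% with 4 CpG. Nrxn2, a presynaptic adhesion protein, was low at both ends of its coding sequence, with 3.29% and 3.76% in exon 1 and 3.72% in exon 22 of 22, and higher in between, with 97.8% and 94.5% in exon 9, 90.3% in exon 6 and 34.5% in exon 19. Sema5b, a semaphorin of axon guidance, was at 92.4% in exon 5 and between 12.2% and 24.6% in exons 15 and 16. Bsn, a scaffold of the presynaptic zone, was at 21.8% in 1 bin and above 90% in the other five. Ryr1, Nrxn2 and Sema5b thus each held exons of opposite state. All 6 bins of Bahcc1 lay between 95.5% and 98.3%, and the 7 bins of Lmtk3 between 64.0% and 98.1%.

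Among genes with at least 3 bins, those with the lowest means included several developmental regulators. Shh, the Hedgehog ligand, averaged 4.51% over 6 bins, Tbx2, a T-box repressor, 6.09% over 3, and Prdm13, a zinc finger regulator of neurons, 5.02% over 6. The bins of these regulators lay near the 5 kb limit, between 5235 bp (Tbx2) and 7098 bp (Shh) from the nearest TSS. They held 8 to 17 CpG each. Plin1, which coats the lipid droplets of fat cells, was the lowest gene with 1.51% over 3 bins, followed by the zinc finger gene Zfp697 with 2.13% over 4. Otud7a (a deubiquitinase, 3.20%), Zfp853 (4.33%), Scarf2 (a scavenger receptor, 4.55%), Adra1b (an adrenergic receptor, 5.76%) and Kbtbd11 (7.22%) completed the 10 lowest. In Kbtbd11, 1 of the 5 bins was at 29.6%. Among the 5 highest were Klf3 (a Krüppel-like repressor, 98.3%), Dchs2 (a giant cadherin, 98.1%), Plec (plectin, a cytoskeletal linker, 97.9%) and Phrf1 (97.7%).

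**Figure D2:**
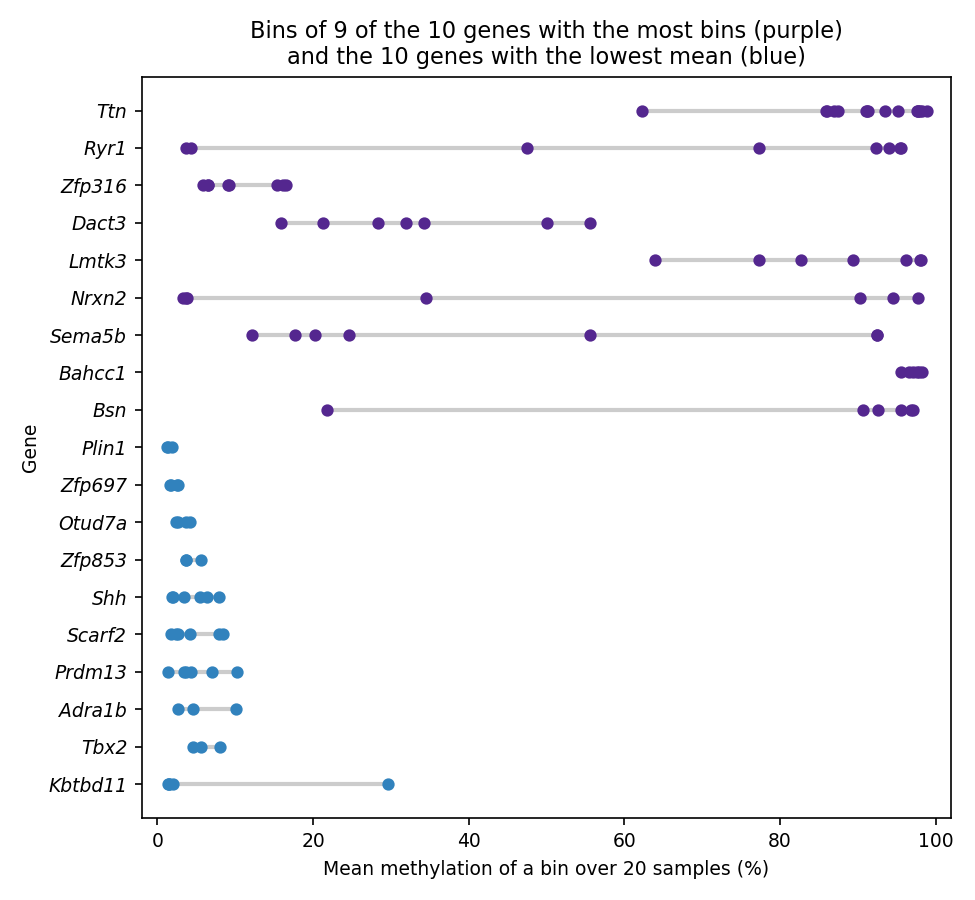
Mean methylation over 20 samples (percent, horizontal axis) of each coding-exon bin (points) in 9 of the 10 genes with the most bins (purple) and the 10 genes with the lowest mean among genes with at least 3 bins (blue), with a grey line from the lowest to the highest bin of a gene. Bins of Ryr1, Nrxn2 and Sema5b spanned from under 20% to over 90%, whereas all bins of Shh were below 8%.

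Coding exons and introns of the same gene could be set side by side in 1117 genes. The coding exons averaged 82.0% and the introns 77.6%, and the exons were higher in 741 genes and lower in 376, with a median difference of 3.61 points. The difference exceeded 20 points upward in 237 genes and downward in 134. Zfpm1, which encodes the GATA1 cofactor FOG1, was at 97.0% in 4 coding-exon bins and 14.6% in 4 intron bins. Setd1b, a histone H3 lysine 4 methyltransferase, was at 91.1% in 2 coding-exon bins and 34% in 3 intron bins. The opposite held for Adra1b, at 5.76% in 3 coding-exon bins and 90.5% in 5 intron bins. It also held for Zfp697, at 2.13% in 4 coding-exon bins and 96.4% in its only intron bin. Dnmt3a, the de novo DNA methyltransferase, had 1 coding-exon bin at 95.8% and 2 intron bins at a mean of 24.1%.

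The first comparison asked whether the mean methylation of coding exons changed with 5FU. The mean over the 2902 bins was slightly higher after 10 cycles, while the difference in the median over bins was 0.565 points (adjusted exact permutation p = 0.462). The lowest, median and highest 10x samples were at 80.7%, 81.0% and 81.2%, and the 0x samples were at 80.9%, 79.3%, 79.0% and 79.5%. The samples of 10x lay above 3 of the 4 untreated samples, but 0x sample 01 lay within the 10x range. The group mean was 80.9 ± 0.212% in 10x (SD, n = 6) and 79.6 ± 0.834% in 0x (SD, n = 4). The difference was 1.30 points (SE 0.426), with a two-sided exact permutation p of 0.0143 and 0.0429 after Benjamini-Hochberg adjustment over 3 comparisons. The smallest p that 6 against 4 samples allow is 0.00476.

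After 4 cycles the samples were at 80.2%, 80.8%, 80.5% and 80.6%, with a mean of 80.5 ± 0.228% (SD, n = 4) that exceeded 0x by 0.890 points (SE 0.433, exact permutation p = 0.143, adjusted 0.214). After 2 cycles the lowest, median and highest samples were at 78.2%, 79.5% and 80.2%, and the difference from 0x was -0.291 points (SE 0.513, exact permutation p = 0.576). Neither difference passed the threshold in these bins. Over all 26061 deposited bins of the rule that vary, the difference was 0.808 points in 4x and 0.624 points in 2x (adjusted exact permutation p = 0.0286 each). That set keeps values filled with the mean of a sample's own group. Such values carry the group into the data, so these p-values are not read as passed tests. With repeated values set to missing (16261 bins), the difference was 0.429 points in 4x (adjusted exact permutation p = 0.200). It was 0.966 points in 2x and 0.800 points in 10x in that set (adjusted exact permutation p = 0.0357 each). The direction in 2x thus depended on which bins and values were kept. Without 0x sample 01 the difference was 1.71 points in 10x (exact permutation p adjusted to 0.0357) and 1.29 points in 4x (adjusted to 0.0429). The 10x call was lost without 0x sample 02 (1.18 points), 13 (1.08 points) or 14 (1.25 points), each with an adjusted exact permutation p of 0.107, and without 10x sample 11 (1.26), 32 (1.32), 33 (1.26) or 34 (1.29), each at 0.0714.

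The sample numbers in the labels fall into a range from 01 to 12 and one from 13 to 34, and both hold every group. The difference between 10x and 0x was 0.896 points in the lower range (2 against 2 samples, exact permutation p = 0.667, smallest possible 0.333) and 1.72 points in the upper range (4 against 2, exact permutation p = 0.0667, the smallest possible). Permuted within both ranges together, it was 1.37 points (exact permutation p = 0.0222, adjusted 0.0667). Groups also differed in the share of coding-exon bins at exactly 0 or 100. Samples had 19.1% to 37.4% of these bins at 100 after 10 cycles, 9.89% to 47.5% after 4 and 43.1% to 52.9% after 2, against 26.6% to 43.0% in 0x. The share at 0 was 6.00% to 9.48% in 2x, against 2.79% to 6.06% in 0x. Their part in the differences was not tested.

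**Figure D3:**
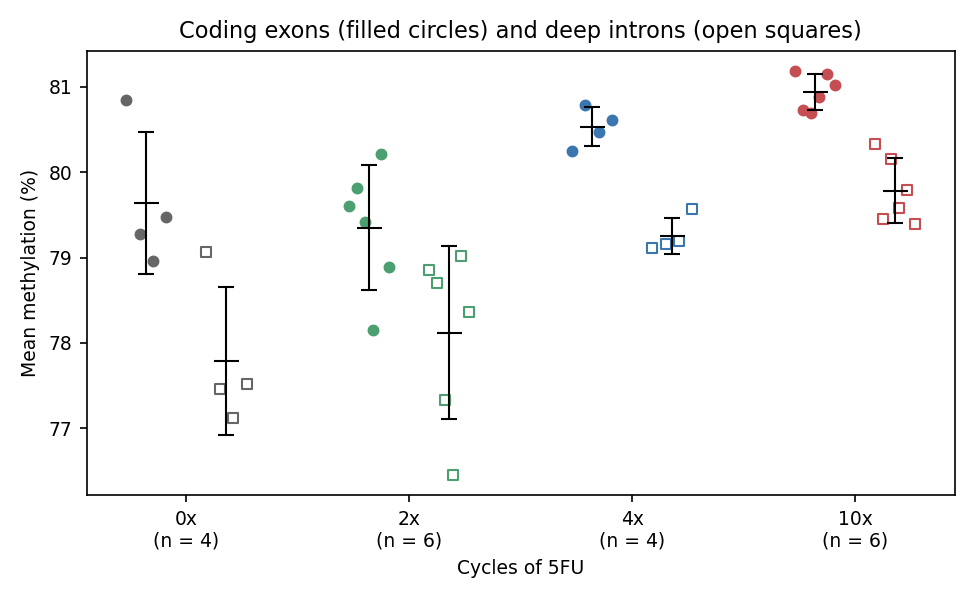
Mean methylation (percent, vertical axis, not starting at 0) of 2902 coding-exon bins (filled circles) and 14862 deep intron bins (open squares) in each sample, by number of 5FU cycles (horizontal axis), with the group mean and SD as bars. The 10x coding-exon means lay between 80.7% and 81.2%, within a narrower range than the 0x means, which lay between 79.0% and 80.9%.

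Over all 20 samples, the coding-exon mean rose by 0.155 points per cycle (Pearson r = 0.708, permutation p = 0.00057; Spearman rho = 0.740, permutation p = 0.00049; 100000 permutations, unchanged by adjustment over 3 slopes). Deep introns had 0.200 points per cycle (r = 0.741, permutation p = 0.00026) and near intergenic bins 0.210 (r = 0.750, permutation p = 0.00023). Without 10x samples 11 and 12, r for coding exons was 0.667 (rho 0.703, permutation p = 0.00253 and 0.00151). Over the 14 samples of 0x, 2x and 4x alone, the coding-exon slope was steeper, at 0.222 points per cycle, with r = 0.435 (permutation p = 0.120). When repeated values were set to missing instead (16261 bins), it was 0.0408 points per cycle over 20 samples (permutation p = 0.173). Within the label ranges, r was 0.635 over 8 samples (permutation p = 0.0959) and 0.796 over 12 samples (permutation p = 0.00389).

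The bins were then divided by level, CpG number, exon position and distance. Bins above 80% averaged 95.0% in 10x and 93.5% in 0x, 1.51 points apart with no overlap of samples (exact permutation p = 0.00476). Bins between 20% and 80% differed by 1.72 points (exact permutation p = 0.129) and bins below 20% by -0.922 points (exact permutation p = 0.0952), at 7.06% in 10x and 7.98% in 0x. By number of CpG, the difference was 1.80 points in bins with 1 to 3 CpG (exact permutation p = 0.00952), 1.33 points with 4 to 7 (p = 0.0143 by the same exact test) and 0.385 points with 8 or more (exact permutation p = 0.138). It was 1.46 points in internal coding exons (exact permutation p = 0.00952) and 0.761 points in last coding exons (exact permutation p = 0.0714). Last coding exons were lower in 2x than in 0x with no overlap, at 69.8% against 71.1% (difference -1.34 points, exact permutation p = 0.0143). None of the 45 strata tests passed an adjusted p of 0.05, and the lowest adjusted exact permutation p was 0.107. Differences between strata were not tested.

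Deep introns and near intergenic bins changed by more than coding exons. In 10x against 0x, deep introns were at 79.8% and 77.8% (difference 2.00 points, exact permutation p = 0.00476) and near intergenic bins at 75.9% and 73.6% (difference 2.28 points, exact permutation p = 0.00476), both without overlap. Promoter bins differed by 0.0918 points (exact permutation p = 0.405) and coding exons within 5 kb by -0.0137 points (exact permutation p = 0.933). Coding exons lay above deep introns in all 20 samples. The gap was 1.16 ± 0.396 points in 10x (SD, n = 6), against 1.86 ± 0.0763 in 0x (SD, n = 4). It was thus narrower after 10 cycles, with a change of -0.696 points (SE 0.166, exact permutation p = 0.0190, adjusted over 6 comparisons 0.0343) and no overlap. Adjusted over 9 comparisons, which include those within genes given further on, the p was 0.0514. In 4x the gap was 1.27 ± 0.260 points (SD, n = 4), a change of -0.582 points (exact permutation p = 0.0286, the smallest possible, adjusted 0.0343). In 2x it was 1.23 ± 0.580 points (SD, n = 6), a change of -0.623 points (exact permutation p = 0.0905).

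The gap to near intergenic bins averaged 5.07 points after 10 cycles, 5.26 after 4 and 5.02 after 2, against 6.05 points in 0x. It was narrower than in 0x in each treated group. The change was -0.971 points for 10x (exact permutation p = 0.00476, adjusted 0.0286), -0.785 for 4x and -1.03 for 2x (adjusted exact permutation p = 0.0343 each). Over 9 comparisons, the adjusted exact permutation p was 0.0429 for 10x against intergenic bins and 0.0514 or higher for every other gap. In 10x the narrowing against introns lost its call without any 1 of the 0x samples (-0.659 to -0.718 points, adjusted exact permutation p = 0.0686), and that against intergenic bins did so too (-0.890 to -1.07 points, adjusted exact permutation p 0.0571 to 0.0686). In each of these runs the unadjusted exact permutation p against intergenic bins was 0.0119, the smallest that the remaining samples allow. That lost call thus cannot be told apart from the smaller number of samples.

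Introns hold fewer CpG per bin than coding exons, and low CpG numbers went with larger changes in both. With 1 to 3 CpG, the change in 10x was 1.80 points in coding exons and 2.27 in introns (exact permutation p of the difference 0.214), with 4 to 7 CpG it was 1.33 and 1.30 points (exact permutation p = 0.876), and with 8 or more 0.385 and 0.488 points (exact permutation p = 0.829). When introns were weighted to the CpG numbers of coding exons, a comparison chosen after the data had been seen, the gap was 8.10 ± 0.255 points in 10x (SD, n = 6) and 8.16 ± 0.218 in 0x (n = 4). It then differed by -0.0575 points (SE 0.151, exact permutation p = 0.743), while the weighted introns themselves were 1.36 points higher in 10x (exact permutation p = 0.00476). Against intergenic bins weighted in the same way, the change was -0.256 points in 10x (exact permutation p = 0.133) and -0.551 in 2x (exact permutation p = 0.0190). Within the 1117 genes that hold both classes, the gap of 4.22 points in 10x and 4.84 in 0x differed by -0.618 points (exact permutation p = 0.0524).

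**Figure D4:**
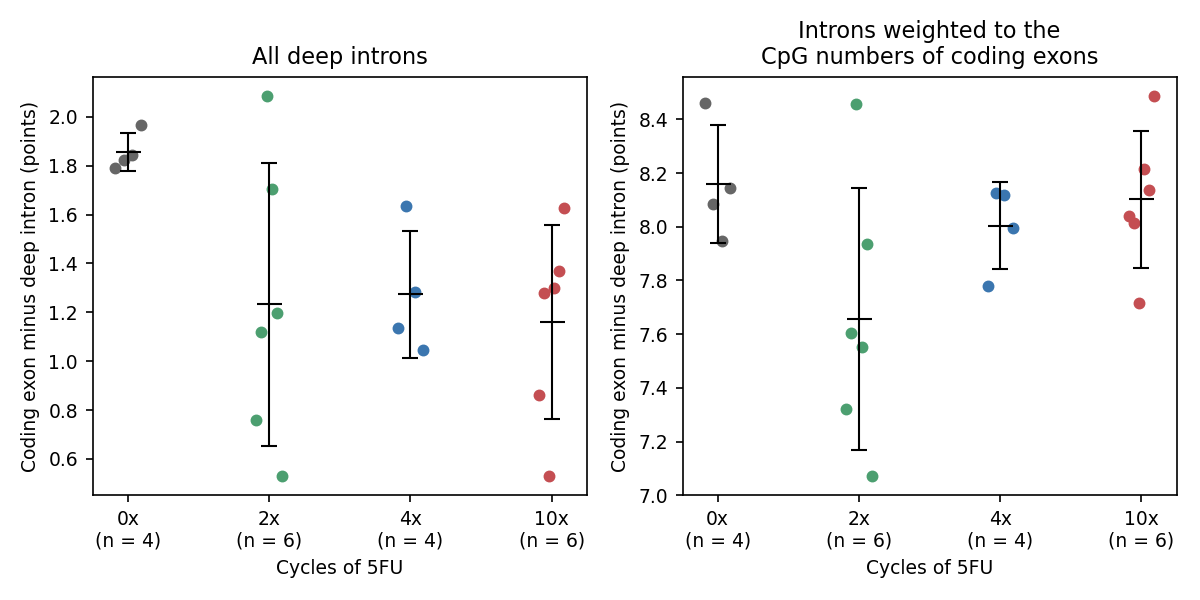
Mean of coding-exon bins minus mean of deep intron bins (points, vertical axes, not starting at 0 and of different range) in each sample by number of 5FU cycles, with all deep introns (left) and with introns weighted to the CpG numbers of coding exons (right), and the group mean and SD as bars. On the left the 0x samples lay at 1.79 to 1.97 points and the 10x samples at 0.529 to 1.63, whereas on the right the 10x and 0x samples overlapped.

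The spread between samples of a group was smaller in coding exons than in introns in each of the 4 groups, as a description over bins. The median SD of a coding-exon bin was 6.52 points without 5FU, 9.06 after 2 cycles, 5.04 after 4 and 4.64 after 10, and that of a deep intron bin 9.11, 12.7, 7.22 and 6.33 points in the same order. Bins between 20% and 80% varied most, with median SDs of 18.8, 27.1, 16.2 and 15.4 points in that order of cycles. The depth of the libraries is unknown, and its part in these spreads was not tested.

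Single bins were then compared with limma, fitted on the percent over all 84131 bins without repeated values. A call needed an adjusted p under 0.05 and at least 10 points. No coding-exon bin passed in 10x, where 0.0131% of all bins did, none in 2x, where 0.00357% did, and 1 (0.0345%) in 4x, where 0.00713% did. Without 0x sample 01, 02 or 14, 1, 2 and 3 coding-exon bins passed in 10x. These were 0.0345%, 0.0689% and 0.103%, against 0.116%, 0.0440% and 0.0321% of all bins in the same runs. Without 2x sample 17, 1 passed in 2x (0.0345%, against 0.0202% of all bins). At an unadjusted p under 0.05 and 10 points, 79 coding-exon bins (2.72%) were higher and 34 (1.17%) lower in 10x, against 2.90% and 1.28% of all bins. In 4x, 48 (1.65%) were higher and 19 (0.655%) lower, against 1.81% and 1.04% of all bins. In 2x, 46 (1.59%) were higher and 29 (0.999%) lower, against 1.84% and 1.02% of all bins. At this threshold the shares of coding-exon bins were thus near or below those of all bins. In deep introns the 10x shares were 3.96% higher and 1.51% lower. The median bin difference in 10x was 0.712 points over coding-exon bins, with 1687 higher and 1215 lower, against 0.509 points over all bins and 1.31 points over deep introns.

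Among the 79 bins higher in 10x, 41 had a mean above 80% and 35 lay between 20% and 80%. The samples did not overlap in 13 of the 79 and in 5 of the 34 lower bins, which is 0.448% and 0.172% of the coding-exon bins, against 0.578% and 0.239% of all bins. The largest difference was in Sypl2, in which the 10x samples were at 90.9%, 80%, 76.9%, 85.5%, 100% and 100%, against 19.6%, 0%, 0% and 50% in 0x. Every 10x sample was thus above every untreated one, by 71.5 points on average (SE 9.88, limma adjusted p = 0.0941). The 2x samples of Sypl2 were scattered between 0% and 100%, and the 4x samples between 34.9% and 100%.

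In Dnm1 the 10x samples ranged between 51.4% and 85.2% with a median of 69.7%, against 36.4%, 16.7%, 41.9% and 0% in 0x. The difference was 45.3 points (SE 8.76, limma adjusted p = 0.229), and the 4x samples, at 65.8%, 66.4%, 50.6% and 84.7%, also lay above all 0x samples. In Frmpd1 the 10x samples lay between 89.4% and 100% (median 95.5%), against 50%, 78.2%, 62.5% and 80% in 0x. Its difference was 27.8 points in 10x (limma adjusted p = 0.266) and 31.2 points in 4x, where samples lay between 97.8% and 100%. The Gli1 bin was at 59.9% to 73.4% in 10x (median 66.6%) and at 47.9%, 41.2%, 57.7% and 43.8% in 0x, which is 19 points apart (SE 3.64, limma adjusted p = 0.223). The 2x samples of this bin ranged between 34.5% and 100%, on both sides of the 0x range, and the mean over all 5 bins of Gli1 was 68.8% in 10x and 74.7% in 0x. The other bins higher in 10x without overlap and among the 10 largest lay in Ncdn (33.4 points), the kinase gene Map3k6 (30.7), Ryr1 (23.3), the gastric mucin gene Muc6 (21.8), Cdc25b, a phosphatase that activates cyclin-dependent kinases (21.4), and the adhesion gene Dscaml1 (20.1).

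Virma showed the largest fall in 10x without overlap. Its bin was at 50%, 64.8%, 75%, 64.1%, 78.6% and 58.1% in 10x, against 96.3%, 100%, 100% and 100% in 0x. The 10x samples were thus all below the untreated ones, with a difference of -34 points (SE 5.14, limma adjusted p = 0.116), and the group means stood at 99.1% without 5FU, 90.6% after 2 cycles, 79.2% after 4 and 65.1% after 10. The Runx3 bin was at 6.72%, 59.9%, 40%, 47.5%, 60.3% and 52.0% in 10x, against 64.6%, 76.3%, 75.5% and 75.6% in 0x (difference -28.6 points, SE 9.73, limma adjusted p = 0.634). Its 2x samples lay between 5.32% and 65.1%, and its 4x samples between 32.2% and 84.1%. The mean over all 3 bins of Runx3 was 54.3% in 10x and 64.6% in 0x. By this mean the 10x samples, at 25.9% to 82.4%, overlapped the 0x samples, at 53.2% to 73.9% (limma unadjusted p = 0.288). The remaining falls in 10x without overlap were in Tsga10ip (-27.5 points), Plxdc1 (-19.8) and the deubiquitinase gene Usp37 (-18.7).

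**Figure D5:**
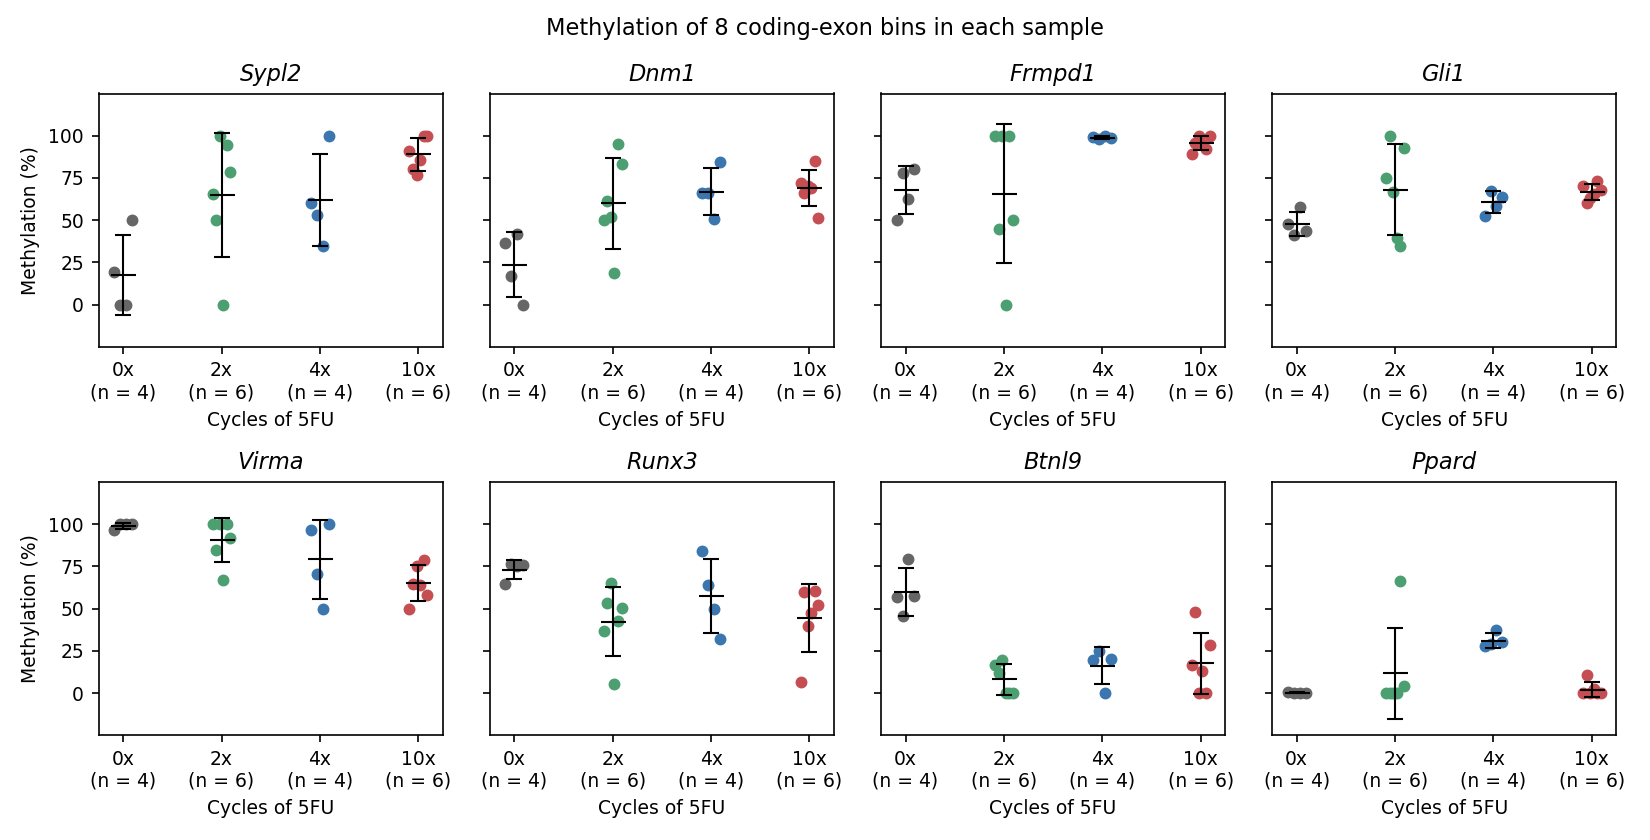
Methylation (percent, vertical axes) of 8 coding-exon bins in each sample by number of 5FU cycles (horizontal axes), with the group mean and SD as bars. Every 10x sample of Sypl2, Dnm1, Frmpd1 and Gli1 lay above, and every one of Virma and Runx3 below, all 0x samples, while Ppard stood at 27.8% to 37.3% in 4x only, apart from 1 sample of 2x at 66.7%.

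The 1 bin past the adjusted threshold was that of Ppard in 4x. Its 4x samples were at 27.8%, 29.3%, 37.3% and 30.0%, against 0.599%, 0%, 0% and 0.196% in 0x, a difference of 30.9 points (SE 2.34, limma adjusted p = 0.0488). The difference was not seen after 10 cycles, where 4 of 6 samples were at 0% and the highest at 10.7%, and in 2x 4 samples were at 0%, 1 at 4.46% and 1 at 66.7%. Leaving out any 1 sample other than 4x sample 19 lost the call (limma adjusted p 0.105 to 0.218), and without 4x sample 19 the adjusted p was 0.0222. With a variance trend in limma the adjusted p was 0.952, with the log2 ratio of the percents 0.454, with the label range as a block 0.152, and with all 4 groups in 1 fit it was 1.

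Btnl9 was low in all treated groups. Its 4x samples were at 19.8%, 25%, 0% and 20.3% and its 2x samples at 16.7%, 12%, 19.8%, 0%, 0% and 0%, against 57.0%, 45.7%, 79.5% and 57.4% in 0x. The difference was -43.6 points in 4x (SE 8.26, limma adjusted p = 0.803) and -51.8 in 2x (SE 6.91, limma adjusted p = 0.141). Its 10x samples lay between 0% and 47.8%, so that 1 of them overlapped 0x. The other bins lower in 4x without overlap were in the netrin receptor gene Unc5b (-31.1 points), Agbl1 (-15.9), Enox1 (-12.2) and Mpp4 (-11.5), and those lower in 2x in Pex5l (-24.3), the clock transcription factor gene Npas2 (-22.9) and the cullin gene Cul9 (-19.5). The largest rises without overlap in 4x, beside Dnm1 (43.1 points), Frmpd1 and Ppard, were in Zc3h12d (38.8), which encodes a protein of the Regnase family, and the deubiquitinase gene Usp49 (36.1). In 2x they were in Usp49 (50.9), Kank4 (40.5), Ncdn (34.4), the fibulin gene Fbln7 (26.0) and the nucleoporin gene Nup50 (17.4). The Usp49 bin averaged 73.3% after 2 cycles, 58.5% after 4 and 43.3% after 10, against 22.4% in 0x, where 2 samples were at 0% and the others at 47.2% and 42.4%. These comparisons share the 0x samples, so that a bin with low or high 0x values can be called in more than 1 of them.

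A slope over the number of cycles was fitted for each bin with limma over all 20 samples. None of the coding-exon bins passed an adjusted p of 0.05, against 0.00119% of all bins. At an unadjusted p under 0.05, slopes were positive in 46 coding-exon bins (1.59%) and negative in 46 (1.59%), against 2.26% and 1.29% of all bins. Bins of the same gene moved little together. The correlation of their 10x differences across pairs was 0.163 within 100 bp, 0.0528 at 100 to 1000 bp, 0.114 at 1 to 10 kb and 0.0371 beyond 10 kb, over pairs that are not independent since they share genes and samples.

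Averaging the bins of a gene gave 182 genes with at least 3 coding-exon bins, tested with limma among 10112 units of genes and classes. No coding-exon mean passed an adjusted p of 0.05 in any comparison, except 1 in 4x without 0x sample 02. At an unadjusted p under 0.05, 15 of the 182 were higher and 4 lower in 10x, against 6.73% and 2.22% of all units. In 4x, 14 of the 182 were higher and 3 lower, against 3.68% and 1.39% of all units. In 2x, 4 of the 182 were higher and 11 lower, against 2.57% and 1.76% of all units. As shares of the 182, those higher in 10x, higher and lower in 4x, and lower in 2x stood above the shares of all units. Those lower in 10x and higher in 2x did not. The excess was widest for those higher in 4x and lower in 2x, and it was not tested. Dnm1 had the largest rise, with 56.5 ± 3.81% in 10x (SD, n = 6) and 40.3 ± 9.81% in 0x (n = 4; limma adjusted p = 0.236). It was followed by Fbxo41 (12.4 points), Frmpd1 (11.5 points), Shank3, a postsynaptic scaffold (11.4 points), and Cracd, a regulator of actin capping (10.7 points, limma adjusted p = 0.190). In Cracd the 10x samples lay between 91.1% and 99.3%, against 80.3%, 84.3%, 82.5% and 87.8% in 0x, with no overlap. Without 0x sample 01, 30 gene means in place of 19 had an unadjusted p under 0.05, and the share of all units was not computed for that run.

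Lmtk3, a kinase gene of nerve tissue, had the largest fall, with samples between 76.6% and 92.2% in 10x (median 79.6%), against 98.0%, 90.0%, 97.6% and 95.2% in 0x. Its mean was 93.6% in 4x and 80.6% in 2x, a difference from 0x of -1.56 and -14.6 points (limma adjusted p = 0.984 and 0.999). The 10x difference of -13.3 points (SE 3.37, limma adjusted p = 0.251) came mostly from neighbouring bins in coding exon 11. Of these, 1 was at 46.2% in 10x and 94.4% in 0x, whereas the bins at the far end of the exon stayed above 93% in both groups. The zinc finger gene Zfp30 (-9.38 points), the semaphorin receptor gene Plxna4 (-7.73) and the teneurin gene Tenm3 (-5.24) were the other falls. Zfp316, with 8 bins in 1 exon, was uneven among untreated samples, at 4.75%, 3.40%, 44.9% and 30.3% in 0x, while all 10x samples lay between 1.90% and 10.2%, and it was not called (limma unadjusted p = 0.0840).

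Gene groups spanned a wide range of levels. Their levels are to be read beside all coding-exon bins, of which 75.2% were above 80% and 9.92% below 20%. In the lists below, no bin passed the adjusted threshold in any comparison, and the medians of the 10x difference are to be read beside 0.712 points over all coding-exon bins. Bins counted as higher or lower in 10x are those at an unadjusted limma p under 0.05 and 10 points, of which there were 2.90% and 1.28% among all bins. With lists of 7 to 84 bins, counts of 0 to 3 are not read as results about a list. The 23 homeobox and other developmental transcription factor genes were the lowest, with a mean of 53.3% over 35 bins, 15 of them below 20%. Hoxd3 was at 8.10% over 3 bins and Gli1 at 72.0% over 5. In 10x, 3 bins of this list were higher and 2 lower, and the median difference was -0.313 points. Zinc finger genes (44 genes, 84 bins) averaged 73.7% with 17 bins below 20%. Among the 4 of them named for their number of bins, Zfp697 was lowest at 2.13% and Zscan2 highest at 94.9%. Of the 38 bins in 21 genes of G protein-coupled and glutamate receptors, 10 were below 20%, among them those of Grin2c, an NMDA receptor subunit, at 8.28% over 6 bins, while Gpr157 was at 96.7% over 3. Their mean was 68.6% and their median 10x difference 0.166 points. Axon guidance genes (16 genes, 29 bins) averaged 69.6% and voltage-gated ion channel genes (27 genes, 43 bins) 72.1%.

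Coding exons of most chromatin regulator genes were highly methylated. The 10 bins in 8 genes of enzymes of DNA and histone H3 lysine 36 methylation were all above 80%, with a mean of 95.5%, and included Dnmt1 at 98.3%, Tet1, which oxidises methylated cytosine, at 96.9% and Dnmt3a at 95.8%. None of them was higher or lower in 10x at an unadjusted p under 0.05, and the median difference was -0.111 points. In 1 of the 10x samples, number 32, the Dnmt3a bin was at 61.6%, whereas the other five lay between 96.8% and 100%. Genes of Polycomb and histone H3 lysine 4 methylation complexes (10 genes, 18 bins) averaged 88.3%, with 15 bins above 80%, no call in 10x and a median difference of 0.0163 points. Kmt2a was at 90.1% over 6 bins and Kmt2d at 95.8% over 2. Genes of the DNA damage response (7 genes, 9 bins), among them Brca2 at 90.1% and Fanca at 92.1%, averaged 90.9%, with no call and a median of -1.78 points.

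Hematopoietic transcription factor genes (17 genes, 27 bins) averaged 83.8%, with 19 bins above 80% and 1 below 20%. Zfpm1 was at 97.0%, Bcl6, a repressor of germinal centre B cells, at 96.9%, Cbfa2t3 at 96.2% and Runx3 at 51.9%, with 1 bin lower in 10x, that of Runx3 described above, and a median difference of -0.504 points. The 5 genes of cytokine receptors and JAK-STAT signalling (7 bins) averaged 90.8% in 10x and 79.8% in 0x, and their median bin difference was 1.98 points with 1 bin higher. In Il12rb1, a receptor chain of interleukin 12, the 10x samples lay between 76.6% and 89.8%, against 36.9% to 87.3% in 0x, with overlap. In Sh2b3, an inhibitor of cytokine signalling also called Lnk, the mean of 3 bins was 94.9 ± 3.01% in 10x (SD, n = 6) and 84.1 ± 14.6% in 0x (n = 4; limma adjusted p = 0.612).

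Most bins in genes of large structural proteins were above 80%, as were 75.2% of all coding-exon bins. Collagen genes (20 genes, 32 bins) averaged 89.2% with none below 20% and a median difference of 0.605 points, and Col4a1, of the basement membrane, was at 96.2% over 4 bins. Motor protein genes (34 genes, 60 bins) averaged 87.0%, also with none below 20%, and had a median difference of 2.47 points, with 1 bin higher in 10x. Myo15, a myosin of hair cells, was at 95.2 ± 4.76% in 10x (SD, n = 6) and 83.5 ± 14.7% in 0x (n = 4; limma adjusted p = 0.604). Basement membrane and extracellular matrix genes (24 genes, 46 bins) averaged 77.5%, with 3 bins higher in 10x, none lower, and a median difference of 2.80 points. Vwf, the platelet adhesion protein, was at 73.6% over 5 bins that ranged between 25.4% and 98.0%. Cadherin genes (18 genes, 33 bins) averaged 82.4% with a median of 1.38 points, genes of Notch and LDL receptor-related proteins (16 genes, 26 bins) 85.1% with 0.906 points, and cytoskeletal scaffold genes (27 genes, 65 bins) 85.7% with 0.425 points. In the last of these lists Macf1, which links actin to microtubules, was at 96.3% over 6 bins, whereas Sptbn4, a spectrin of axons, was at 23.4% over 4 bins and at 78.7% in its introns.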

How the data were processed

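RRBS libraries of 20 HSC samples (0x 4, 2x 6, 4x 4 and 10x 6) were used. Per the methods and processing notes, trimming by the authors was done in Trim Galore 0.4.3 (base quality 25) and alignment in Bismark 0.23.1 (mm10). In methylKit 1.22.0, a minimum of 10 reads was set and bins of 100 bp were formed, and bins missing in a sample were filled with the group mean. The deposited values are percent methylation per bin and sample, without reads, so the depth and counting error are unknown and filled values are not marked. Bins with repeated values were left out, since a repeated value can be a filled one, but a value filled in 1 sample of a group is not recognised.

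Bins were annotated with RefSeq genes of GRCm38.p6, and classes were set by the bin centre. limma 3.58.1 in R 4.3.3 was run on the percent, since the methods' test in methylKit needs reads. It compared each treated group with 0x, with Benjamini-Hochberg adjustment over all bins or units. Means over bins were compared by exact permutation of samples (two-sided), and slopes with 100000 permutations. The limma step was tested on simulated data. Python 3.11.15, pandas 2.3.3, numpy 2.4.6, scipy 1.17.1, pysam 0.24.0 and matplotlib 3.10.9 were used for the rest.

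The bins named were those past the adjusted threshold and, among bins at an unadjusted p under 0.05, 10 points and no overlap, the 10 largest rises and falls in 10x and the 5 largest in 2x and 4x. The genes named were the 10 with most bins, the 10 lowest and 5 highest means, the 5 largest rises and falls of gene means in 10x, and up to 4 members with most bins of each of 16 lists. Some genes that this rule takes in are not reported here. Genes chosen for the contrast of coding exons with introns (Zfpm1, Setd1b, Adra1b, Zfp697 and Dnmt3a) came from those names after their values were seen. The bins, lists and tests were chosen with earlier results of these data known. Alternatives changed the bin set, distance, model, weighting, label range and samples.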

Additional observations from a re-analysis of the deposited data

Results flagged for a closer look

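In 27 of 224 groups of 4 to 6 samples examined, 1 sample lay far from the rest, with a gap to its nearest neighbour, as a share of the range, above Dixon's 95% critical value. For normally distributed values chance gives such a gap in about 1 in 20 groups, a rate that these bounded percents need not follow: in 5 of the 27 groups the other samples were all at 100%. No cause was tested.

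Among means over coding-exon bins, bins between 20% and 80% averaged 61.7% in 4x sample 06 (next 58.4%) and 57.1% in 10x sample 31 (next 59.2%). Bins more than 100 kb from a TSS averaged 86.3% in 4x sample 20 (next 84.5%) and 79.3% in 2x sample 04 (next 83.0%).

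Of the named bins, 17 of 116 groups had such a sample. In the 10x group these were Ppard in sample 12 at 10.7% (next 2.16%), Fbln7 in sample 33 at 78.0% (next 94.9%) and Cdc25b in sample 34 at 92.5% (next 98.9%). In 4x, Cul9 was at 0% (next 71.4%) and Fbln7 at 75.8% (next 98.5%), both in sample 20. In 2x, Ppard was at 66.7% (next 4.46%) and Muc6 at 84.2% (next 98.2%) in sample 17, Mpp4 at 86.0% in sample 18 (next 96.6%), Dscaml1 at 45.1% in sample 04 (next 89.0%) and Fbln7 at 95.8% in sample 15, where the others were at 100%. In 0x, Ncdn was at 0% in sample 02 (next 62.2%), Npas2 at 96.0% in sample 14 (next 71.1%) and Runx3 at 64.6% in sample 01 (next 75.5%). The other 0x samples were at 100% where Virma was at 96.3% in sample 01, and where Enox1 was at 97.2%, Mpp4 at 93.8% and Plxdc1 at 91.4% in sample 13.

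Of the gene means, Zfp30 was at 63.2% in 10x sample 33 (next 71.7%) and at 41.3% in 4x sample 19 (next 69.9%). Shank3 was at 90.7% in 4x sample 06 (next 97.6%) and at 68.3% in 2x sample 18 (next 94.3%). In 2x, Lmtk3 was at 64.9% in sample 15 (next 80.1%) and Plxna4 at 64.0% in sample 04 (next 88.4%).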

How the results depend on the processing

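The coding-exon mean in 10x exceeded 0x under every alternative run. With repeated values set to missing it did so by 0.800 points. There and by the median over bins, the 10x difference was smaller than that of 2x given below. It missed the adjusted threshold of the exact permutation test beyond 10 kb from a TSS (1.34 points, adjusted p 0.0714), by the median over bins (0.565, 0.462) and when permuted within ranges (1.37, 0.0667). In the lower and upper label range it was 0.896 and 1.72. There the smallest possible exact permutation p, 0.333 and 0.0667, could not pass. With 1 sample left out it was 1.08 to 1.71. The difference in 2x turned positive over all deposited bins that vary (0.624), where filled group means are kept and the p is not read as a passed test. It was positive and passed the threshold with repeated values set to missing (0.966), and was positive by the median (3.14, adjusted p 0.114). With 1 sample left out it lay between -0.519 and 0.112, positive only without 0x sample 01. The difference in 4x was 0.808 over all deposited bins that vary, with the same limit, and 0.662 to 1.29 with 1 sample left out. The slope was 0.0408 with repeated values missing and 0.222 without 10x (neither past the threshold), and 0.141 to 0.178 with 1 sample left out. The cause was not tested.

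The change in 10x of the gap to introns was -0.618 within genes and -0.0575 after CpG weighting, an alternative chosen after seeing the data, neither past the threshold, and -0.789 to -0.569 with 1 sample left out. For the gap to intergenic bins it was -1.07 to -0.838.

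Counts of coding-exon bins at an adjusted p under 0.05 were 10 in 2x, 10 in 4x and 22 in 10x in the fit on all deposited bins that vary, where filled values are kept (0.345%, 0.345% and 0.758% of the coding-exon bins, against 14%, 9.96% and 10.8% of all bins in that fit). The 4x count was 0 with a variance trend, the log2 ratio, all 4 groups in 1 fit or the label range as a block, and 2x had 1 adjusted and 141 unadjusted calls with all 4 groups in 1 fit (4.86%, against 4.58% of all bins). With 1 sample left out of the 10x, 4x and 2x comparisons, adjusted counts ranged over 0 to 3, 0 to 1 and 0 to 1, unadjusted counts over 90 to 165, 58 to 86 and 65 to 87, and gene means over 15 to 30, 12 to 16 and 10 to 17, while no stratum passed (0 to 0). No paired analysis was possible because the groups share no sample numbers. Without reads, depth cannot be weighed, and a bin missing in many samples is lost from the set.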
